A study of Mus musculus with 12 samples.

Results

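A set of 10 genes of Wnt signalling was followed in mouse 3T3 fibroblasts across the 4 groups of the study, picked by symbol from the 32544 rows of the deposited table. They are the ligands Wnt5a, Wnt5b and Wnt4, the secreted antagonists Sfrp1, Sfrp2, Dkk2, Dkk3 and Wif1, the secreted protein Wisp1, and the feedback gene Axin2. All 10 symbols were found, and 8 had enough counts to be tested. Wnt5b and Wif1 did not. The 3T3 line is an established culture of mouse embryonic fibroblasts. Its cells were untreated or received extracellular vesicles (EVs), small membrane-bound particles released by cells, of the human breast cancer line MDA-MB-468. Exposure lasted 24 h. The EV donors were control cells (shCon), cells with a CRIPTO knockdown (shCr) or cells overexpressing CRIPTO (CrOE). Each group had 3 libraries. The labels do not say whether these came from separate cultures, so p-values measure only the spread between libraries, which may be technical. No EV dose, no EV-free mock preparation and no clone of the donor lines is named in the labels. The CrOE columns carry CRIPTO's name alone and were assigned by elimination, since the shCr columns are named as such.

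Wnt proteins are lipid-modified secreted ligands that bind Frizzled receptors. In the canonical branch they act with the co-receptors Lrp5 and Lrp6, which spares beta-catenin from destruction, and beta-catenin then switches on target genes with TCF and LEF factors. Wnt5a and Wnt5b act mostly through branches that do not need beta-catenin, and Wnt4 can act through either kind. Sfrp proteins and Wif1 bind Wnts outside the cell, whereas Dkk2 binds Lrp5 and Lrp6. Fibroblasts are known as a source of such secreted factors in connective tissue and tumour stroma.

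Library totals lay between 25960054 and 37774020 estimated counts, and mitochondrially encoded genes held 0.495% to 1.70% of them. Tdgf1, the mouse gene of CRIPTO, had 0 to 3 counts in every library, and human transcripts were not analysed here. Levels are given as CPM, counts scaled by library total and by TMM factors that balance the libraries. The 8 fibroblast markers together stood at 14310 to 15032 CPM in untreated libraries, 16661 to 16822 in shCon EV libraries, 11014 to 12731 in shCr EV libraries and 4641 to 4823 in CrOE EV libraries. Among them only Lum, a collagen-binding proteoglycan, was at or below 3 counts, and only in the CrOE EV group. The 4 adipocyte markers, mostly through Lpl and Fabp4, summed to 189 to 226 CPM in untreated, 144 to 146 in shCon EV, 167 to 222 in shCr EV and 7.09 to 8.57 in CrOE EV libraries, while Adipoq had at most 2 counts anywhere. Summed markers reached at most 3.49 CPM for epithelial, 10.3 for immune, 2.57 for endothelial and 2.86 for muscle cells. Epcam was at 0 throughout, and summed bone markers lay between 30.4 and 42.0 CPM. Nearly all of the bone sum was Runx2 (group means 31.1 to 40.5 CPM), while Bglap, Sp7 and Alpl had group means of at most 0.493 CPM. The epithelial and endothelial sums were highest in CrOE EV libraries, at 2.47 to 3.49 and 2.26 to 2.57 CPM. In untreated libraries they stood at 1.19 to 1.95 and 0.590 to 0.773 CPM.

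The CrOE EV group differed from untreated cells in all 8 tested members, 1 higher and 7 lower (a call is an adjusted p under 0.05 in edgeR's quasi-likelihood test). Over all 14279 genes tested, 73.7% were called in that comparison, 36.7% higher and 37.0% lower. The shCon EV group had 5 members called, 1 higher and 4 lower, beside 38.1% of all genes, 18.0% higher and 20.2% lower. The shCr EV group had 6 members called, 2 higher and 4 lower, beside 37.3% of all genes, 18.4% higher and 18.8% lower. A fold change of at least 2 was reached as well by 7 members for CrOE EVs, 3 for shCon EVs and 3 for shCr EVs, beside 29.7%, 6.04% and 6.28% of all genes. The median log2 fold change of the tested members was -2.72, -0.40 and -0.43 in the same order, while that of all tested genes was within 0.020 of 0. These comparisons share the untreated libraries. Members and the gene lists used below were chosen with earlier results of these data known. Their counts and medians beside all genes are therefore a description.

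Between EV groups, shCr differed from shCon EVs in 3 members, 2 higher and 1 lower, beside 8.73% of all genes, 5.22% higher and 3.51% lower. CrOE EVs differed from shCon EVs in all 8 tested members, 1 higher and 7 lower, beside 72.6% of all genes, 36.5% higher and 36.1% lower. Against shCr EVs the CrOE group likewise had 1 higher and 7 lower, beside 73.9% of all genes, 36.9% higher and 37.0% lower. Requiring a fold change of at least 2 left 1, 7 and 7 members in these comparisons, beside 0.756%, 27.2% and 29.6% of all genes. The comparisons with shCon EVs share those libraries.

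**Figure D1:**
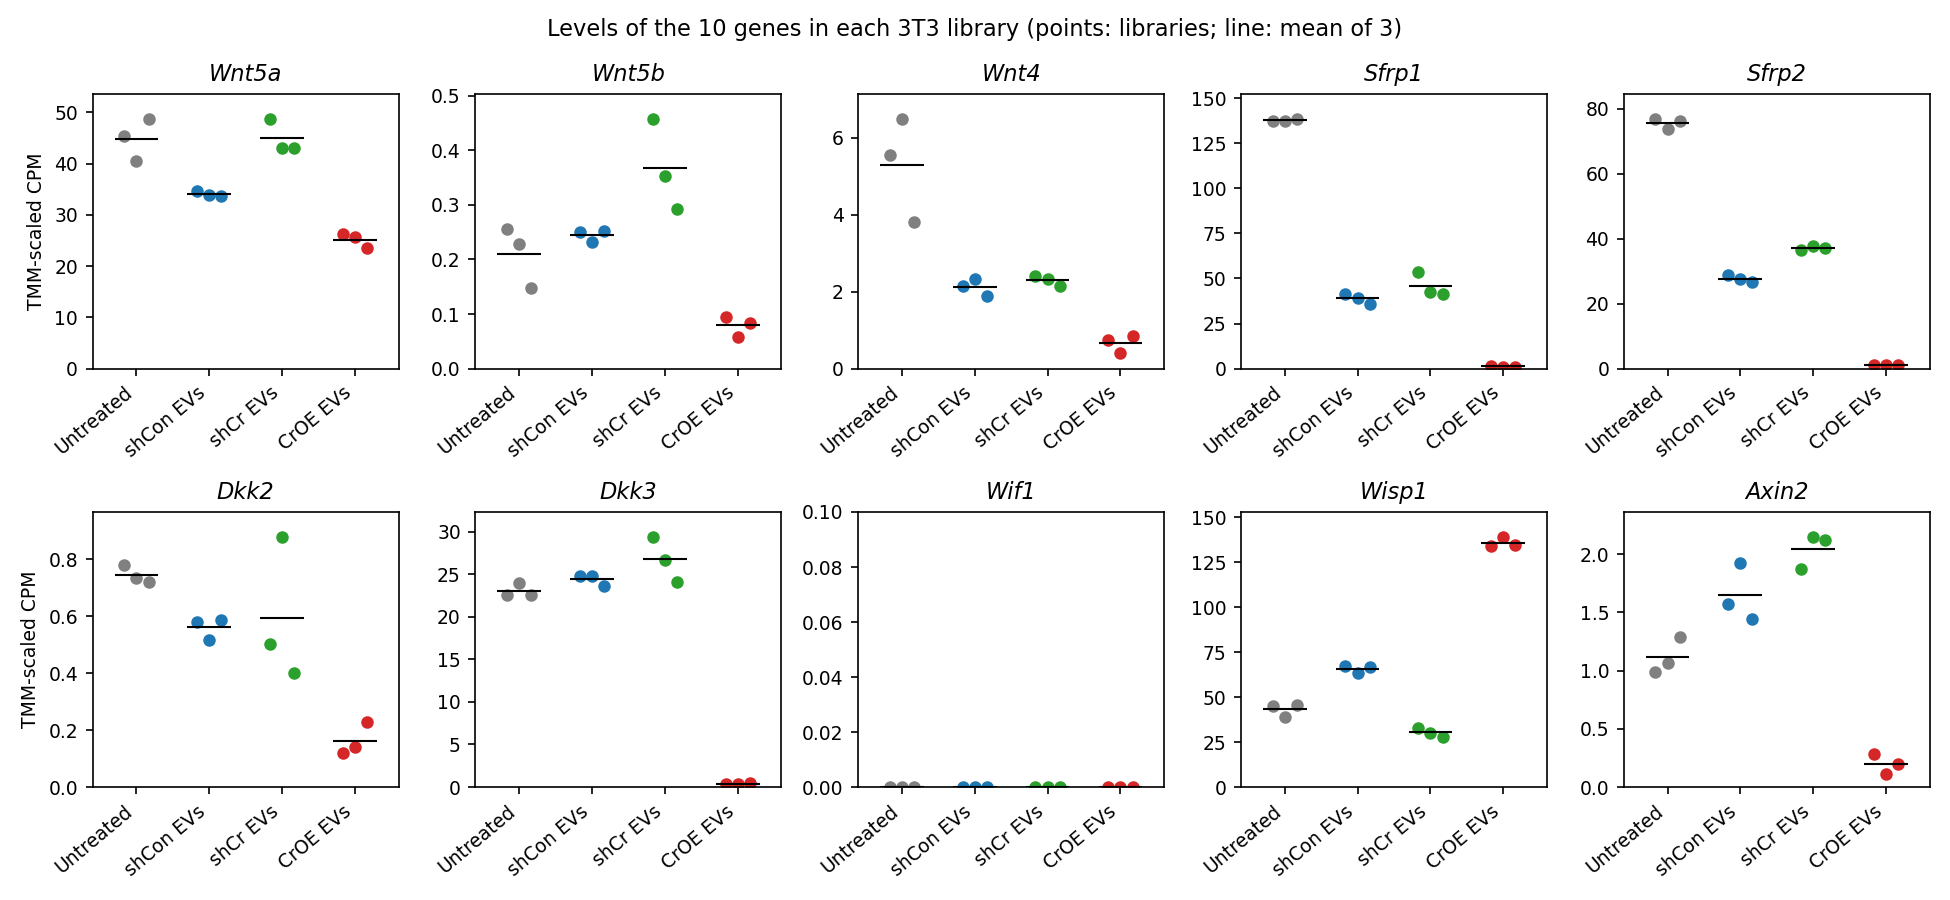
TMM-scaled CPM (y axis, from 0, with its own range in each panel) of the 10 genes in every library, by group (x axis); points are libraries and lines are means of 3. The CrOE EV libraries are lowest in 8 panels and highest for Wisp1, and Wif1 is at 0 throughout.

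RefSeq start-site windows (build GRCm38.p6, 250 bases before to 50 after a start) were found for 6 of the 10 genes. Those of a ligand, an antagonist and a feedback gene are shown, because the genes moved together with CrOE EVs (all lower) and apart with shCr EVs (Axin2 higher, Sfrp2 and Wnt4 lower). Each is written 5′ to 3′ along its gene, with capitals at motif matches. On both strands the search used the TCF/LEF letters CTTTGAA or CTTTGAT or CTTTGTA or CTTTGTT, the GC box GGGCGG, and TATAAA. Of all 32851 windows in the table, 16.9%, 35.7% and 13.6% held the respective motif.
Wnt4 (chr4:137277385-137277684, + strand): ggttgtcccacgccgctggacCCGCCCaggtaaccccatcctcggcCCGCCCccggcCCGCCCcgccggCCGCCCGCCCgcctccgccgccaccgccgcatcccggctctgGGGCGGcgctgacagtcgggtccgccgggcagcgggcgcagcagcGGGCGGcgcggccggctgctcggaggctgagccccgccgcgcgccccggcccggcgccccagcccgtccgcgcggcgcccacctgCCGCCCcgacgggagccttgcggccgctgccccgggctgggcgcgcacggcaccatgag
Sfrp2 (chr3:83766071-83766370, + strand): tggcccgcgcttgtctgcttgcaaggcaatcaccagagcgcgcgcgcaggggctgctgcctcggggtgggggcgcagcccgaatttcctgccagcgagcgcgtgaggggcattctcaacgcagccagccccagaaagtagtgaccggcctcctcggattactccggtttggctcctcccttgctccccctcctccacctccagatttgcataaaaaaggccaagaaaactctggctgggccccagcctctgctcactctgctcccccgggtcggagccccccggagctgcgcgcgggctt
Axin2 (chr11:108920099-108920398, + strand): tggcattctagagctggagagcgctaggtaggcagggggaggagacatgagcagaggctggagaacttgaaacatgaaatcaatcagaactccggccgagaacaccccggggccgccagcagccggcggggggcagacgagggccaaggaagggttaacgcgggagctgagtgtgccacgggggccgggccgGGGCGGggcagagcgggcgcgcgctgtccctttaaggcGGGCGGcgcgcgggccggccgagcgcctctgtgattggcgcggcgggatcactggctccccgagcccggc

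The Wnt4 window held 8 GC boxes, some overlapping, the Axin2 window 2, and the Sfrp2 window none of the motifs. No TCF/LEF match was found in the windows shown, which says only that the letters are not in these bases. Windows of members numbered 8 in all. Of those not shown, 1 window of Wnt5b held 1 TCF/LEF match (CTTTGAT). The other windows of Wnt5b and those of Dkk2 and Wif1 held 0. Whether any match is used in these cells was not tested. CG pairs numbered 51 in the Wnt4 window, 22 in Sfrp2 and 31 in Axin2, against a median of 7 over all windows. The coordinates belong to the RefSeq table; the submitters' processing notes name build mm39 for the counts.

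Wnt5a had the highest level per length of the 3 ligands in each group. It stood at 45.3, 40.5 and 48.8 CPM in untreated libraries, 34.7, 33.8 and 33.6 with shCon EVs, 48.7, 43.0 and 43.1 with shCr EVs and 26.2, 25.6 and 23.6 with CrOE EVs. Untreated and shCr EV libraries overlapped, shCon EV libraries lay below both, and CrOE EV libraries lay below all. Wnt5a fell 1.32-fold with shCon EVs (log2 fold change -0.40, SE 0.076, adjusted p = 0.00119, edgeR) and 1.79-fold with CrOE EVs (-0.84, SE 0.076, adjusted p = 4.4e-07). For shCr EVs against untreated cells its log2 difference was 0.00056 (95% interval -0.16 to 0.16, adjusted p = 0.997, edgeR). Between EV groups it was higher with shCr than shCon EVs (0.40, SE 0.075, adjusted p = 0.00582) and lower with CrOE than shCon EVs (-0.44, SE 0.077, adjusted p = 0.000198).

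Wnt5b, a close relative of Wnt5a, was too low to pass the filter on counts. Its counts were 7, 6 and 4 in untreated libraries, 7, 7 and 7 with shCon EVs, 13, 11 and 11 with shCr EVs and 3, 2 and 3 with CrOE EVs. The CrOE EV libraries had the fewest and the shCr EV libraries the most. Scaled for library size, the ratio of summed counts was 0.374 for CrOE EVs against untreated cells (95% exact interval 0.140 to 0.915, counting error only) and 0.219 against shCr EVs (0.0878 to 0.481). For shCr EVs against untreated cells it was 1.71 (0.932 to 3.25). With no filter, edgeR gave an adjusted p of 0.0449 for CrOE EVs against untreated cells and 0.272 for shCr EVs.

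Wnt4 was lower in every EV group than in untreated cells. The untreated libraries spread from 3.82 to 6.50 CPM (5.55, 6.50 and 3.82), against 2.14, 2.32 and 1.88 with shCon EVs, 2.40, 2.32 and 2.15 with shCr EVs and 0.745, 0.405 and 0.858 with CrOE EVs. No EV library reached an untreated one, shCon and shCr EV libraries overlapped, and CrOE EV libraries were the lowest. The fall was 2.50-fold for shCon EVs (adjusted p = 0.000456, edgeR), 2.32-fold for shCr EVs (adjusted p = 0.000690) and 7.87-fold for CrOE EVs (log2 fold change -2.98, SE 0.25, adjusted p = 1.9e-07). The shCr EV group differed from the shCon EV group by 0.11 on the log2 scale (95% interval -0.39 to 0.61, adjusted p = 0.837). Of the 31-base stretches of Wnt4 transcripts in GENCODE M21, 5.84% also occur in another gene, and all 12 of its deposited values were off a whole number by more than 0.001.

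Sfrp1 and Sfrp2, which bind Wnts through a Frizzled-like domain, had the highest levels per length of the antagonists in untreated cells. Sfrp1 stood at 137, 137 and 139 CPM in untreated libraries, 41.5, 39.1 and 36.0 with shCon EVs, 53.7, 42.5 and 41.5 with shCr EVs and 1.30, 1.08 and 1.12 with CrOE EVs. Every EV library lay below every untreated one, shCon and shCr EV libraries touched, and CrOE EV libraries were far below the rest with 37 to 41 counts each. The log2 fold change of Sfrp1 against untreated cells was -1.82 for shCon EVs (SE 0.090, adjusted p = 1.9e-08, edgeR), -1.59 for shCr EVs (SE 0.089, adjusted p = 4.2e-08) and -6.88 for CrOE EVs (SE 0.13, adjusted p = 2.3e-13). The CrOE value is a 118-fold fall and ranked 23 from the lowest of the 14279 genes tested. The shCr EV group differed from the shCon EV group by 0.24 on the log2 scale (95% interval 0.044 to 0.43) and was no call (adjusted p = 0.131).

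Sfrp2 stood at 77.0, 73.9 and 76.2 CPM in untreated libraries, 28.8, 27.5 and 26.6 with shCon EVs, 36.4, 37.9 and 37.3 with shCr EVs and 1.05, 1.19 and 1.18 with CrOE EVs. The groups did not overlap, in the order untreated, shCr, shCon and CrOE, and each neighbouring pair was a call. Its fall against untreated cells was 2.04-fold for shCr EVs (adjusted p = 1.4e-08, edgeR), 2.74-fold for shCon EVs (adjusted p = 3.0e-09) and 66.1-fold for CrOE EVs (log2 fold change -6.05, SE 0.073, adjusted p = 1.6e-14). Sfrp2 was higher with shCr than shCon EVs by 0.43 on the log2 scale (SE 0.052, adjusted p = 0.000295, edgeR).

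Beside these falls, the summed fibroblast markers were lower in CrOE EV than in untreated libraries. So were the summed adipocyte, immune, muscle and bone markers, while the epithelial and endothelial sums were higher. The epithelial list was mixed: Cldn4 (0 to 1.15 CPM), Krt18 (0.346 to 0.849), Krt8 and Krt14 had higher means with CrOE EVs. Krt19 (0.942 to 0.621 CPM), Cdh1 and Krt5 had lower ones, and Epcam was at 0 in both groups. From the fibroblast list Col1a1 and Vim are named, chosen after their values were seen. Col1a1, a collagen chain, stood at 721 ± 23.8 CPM with CrOE EVs against 4535 ± 229 in untreated cells. Vim, an intermediate filament, stood at 1132 ± 33.4 against 2564 ± 37.1 CPM (SD, n = 3 per group). The part of any marker in the members' falls was not tested. In bulk RNA, fewer cells with a transcript and less transcript per cell cannot be told apart.

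Dkk3, a divergent protein of the Dkk family, was low in the CrOE EV group alone. It stood at 22.6, 23.9 and 22.5 CPM in untreated libraries, 24.8, 24.8 and 23.6 with shCon EVs, 29.4, 26.7 and 24.1 with shCr EVs and 0.412, 0.349 and 0.421 with CrOE EVs. The CrOE EV libraries held 12 to 15 counts each, and the other 9 libraries lay close together. Dkk3 was 57.8-fold lower with CrOE EVs than without EVs (log2 fold change -5.85, SE 0.12, adjusted p = 4.4e-13, edgeR) and 61.3-fold lower than with shCon EVs (adjusted p = 4.8e-13). For shCon EVs against untreated cells its log2 difference was 0.084 (95% interval -0.078 to 0.25, adjusted p = 0.404). The rise with shCr EVs was small (0.21, SE 0.074, adjusted p = 0.0382, edgeR). That call was lost on leaving out shCr EV replicate 1 (adjusted p = 0.108, edgeR) or 2 (0.0830), or untreated replicate 1 (0.138) or 3 (0.124). It was also lost in edgeR without the filter on counts (0.0889) and in a fit of only the 2 groups (0.126). DESeq2 gave no call either (adjusted p = 0.0782).

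Dkk2, a Dkk protein that binds Lrp5 and Lrp6, was near the lowest level that could be tested. It stood at 0.781, 0.735 and 0.720 CPM in untreated libraries, 0.580, 0.517 and 0.589 with shCon EVs, 0.501, 0.878 and 0.402 with shCr EVs and 0.119, 0.142 and 0.228 with CrOE EVs, the last from 4 to 8 counts. CrOE EV libraries lay below all others, and shCr EV replicate 2 was the highest of the 12. Its fall with CrOE EVs was 4.36-fold (log2 fold change -2.13, SE 0.35, adjusted p = 0.000126, edgeR). The shCon and shCr EV groups differed from untreated cells by -0.41 (95% interval -1.06 to 0.25) and -0.35 (-0.99 to 0.28) on the log2 scale, neither a call (adjusted p = 0.315 and 0.377). The shCr value moved with single libraries: it was -0.75 without shCr EV replicate 2 (adjusted p = 0.0678, edgeR) and -0.12 without replicate 3 (adjusted p = 0.807). All 12 Dkk2 values were off a whole number by more than 0.001.

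Wif1, which binds Wnts through its own domain, had 0 counts in all 12 libraries. A count of 0 allows up to 3 counts, or 0.0795 to 0.114 CPM depending on the library (counting error only). No difference between groups was detectable at this depth.

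**Figure D2:**
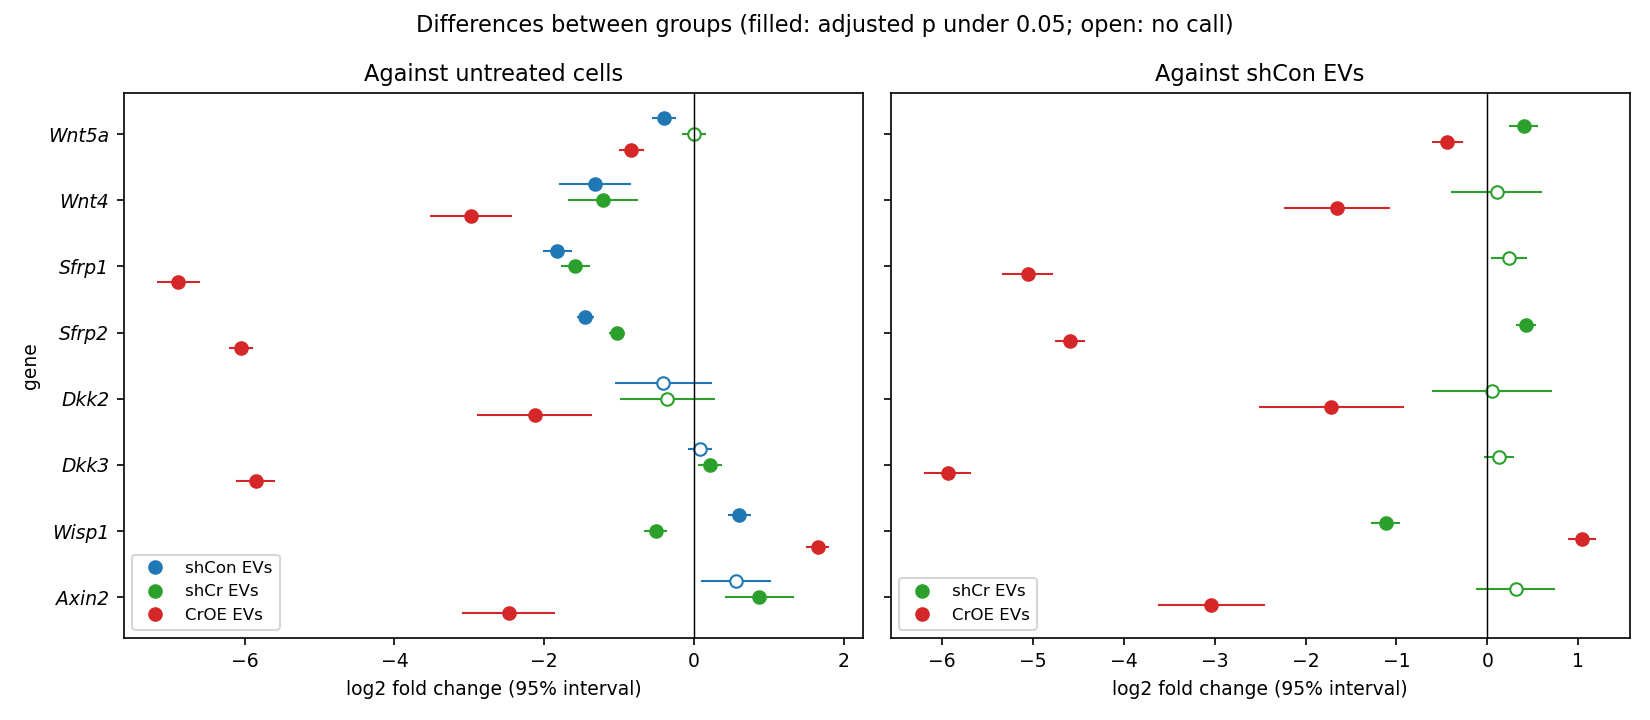
Log2 fold changes with 95% intervals (x axis) of the 8 tested genes (y axis), against untreated cells on the left and shCon EVs on the right; filled points are calls. With CrOE EVs only Wisp1 lies right of 0 (1.65 against untreated cells). Against shCon EVs the shCr points are calls for Wnt5a, Sfrp2 and Wisp1 only. For these genes the shCr and CrOE points there lie on opposite sides of 0. The share of all tested genes with opposite signs was not determined.

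Wisp1 (Ccn4), a secreted matricellular protein first described as Wnt-induced, was the 1 tested member that rose with CrOE EVs. It stood at 44.9, 38.9 and 45.8 CPM in untreated libraries, 67.3, 63.6 and 66.5 with shCon EVs, 33.0, 30.0 and 28.0 with shCr EVs and 134, 139 and 135 with CrOE EVs. The groups did not overlap, in the order CrOE, shCon, untreated and shCr, and each neighbouring pair was a call. Against untreated cells Wisp1 rose 3.14-fold with CrOE EVs (log2 fold change 1.65, SE 0.072, adjusted p = 2.8e-10, edgeR) and 1.52-fold with shCon EVs (0.61, SE 0.072, adjusted p = 3.0e-05). It fell 1.43-fold with shCr EVs (-0.51, SE 0.073, adjusted p = 0.000125, edgeR). Set against shCon EVs, it was 2.17-fold lower with shCr EVs (-1.12, SE 0.073, adjusted p = 3.0e-06), which ranked 97 from the lowest of the 14279 genes tested. It was 2.06-fold higher with CrOE than shCon EVs (1.05, SE 0.070, adjusted p = 2.4e-08, edgeR).

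Of the other CCN family genes, listed as 5, 4 were tested. Ctgf (Ccn2), a matrix-associated protein, had the same order of group means as Wisp1: 28.7 ± 2.41 CPM with CrOE EVs, 15.7 ± 0.999 with shCon EVs, 11.5 ± 2.28 in untreated cells and 7.66 ± 0.904 with shCr EVs (SD, n = 3). For shCr against shCon EVs its log2 fold change was -1.03 (adjusted p = 0.000396, edgeR). A gene on the opposite strand overlaps Ctgf exons, as for Lef1, Notum and Rspo3 below, and whether counting used strand is not given in the sources used here. Nov (Ccn3) was highest with shCr EVs (62.2 ± 1.84 CPM) and lowest with CrOE EVs (7.61 ± 0.358). Wisp2 (Ccn5) fell in the shCon, shCr and CrOE EV groups by 0.48, 0.96 and 1.09 on the log2 scale. Cyr61 (Ccn1) fell with shCon EVs (-0.74) and shCr EVs (-0.60) and was no call with CrOE EVs (-0.10, adjusted p = 0.282).

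Axin2, a scaffold of the beta-catenin destruction complex and a widely used readout of canonical signalling, was lowest with CrOE EVs and highest with shCr EVs. It stood at 0.989, 1.07 and 1.29 CPM in untreated libraries, 1.57, 1.93 and 1.44 with shCon EVs, 1.87, 2.15 and 2.12 with shCr EVs and 0.285, 0.116 and 0.197 with CrOE EVs, the last from 4 to 9 counts. The shCon and shCr EV libraries overlapped each other and lay above the untreated ones, and the CrOE EV libraries lay below all. Axin2 rose 1.83-fold with shCr EVs (log2 fold change 0.88, SE 0.21, adjusted p = 0.00524, edgeR) and fell 5.55-fold with CrOE EVs (-2.47, SE 0.28, adjusted p = 4.2e-06). With shCon EVs the log2 difference was 0.56 (95% interval 0.10 to 1.03) and missed the threshold (adjusted p = 0.0555). CrOE EVs gave 8.21-fold less Axin2 than shCon EVs (adjusted p = 3.7e-07, edgeR) and 10.2-fold less than shCr EVs (adjusted p = 9.5e-08).

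Other beta-catenin target genes were listed as 10, with 5 tested. Against untreated cells 1 was called higher and 3 lower with CrOE EVs, 1 higher with shCon EVs and 2 higher with shCr EVs, beside 73.7%, 38.1% and 37.3% of all tested genes called in either direction. Lef1, a DNA-binding partner of beta-catenin, stood at 5.63 ± 0.288 CPM in untreated cells (SD, n = 3) and rose in each EV group, to 15.0 ± 0.974 for shCon, 11.9 ± 1.67 for shCr and 7.22 ± 0.389 for CrOE EVs. Nkd2, an inhibitor of Dishevelled, fell with CrOE EVs from 3.33 ± 1.04 to 0.336 ± 0.0232 CPM. Apcdd1, a membrane inhibitor of Wnt signalling, stood at 14.2 ± 1.52 CPM in untreated cells, 13.4 ± 0.765 with shCon EVs, 30.7 ± 1.19 with shCr EVs and 6.91 ± 0.900 with CrOE EVs. Its rise with shCr against shCon EVs was a call (log2 fold change 1.20, adjusted p = 1.4e-05, edgeR).

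Levels were compared between members per length, as CPM per kb of exon in GENCODE M21. In untreated cells Sfrp2 (35.2 ± 0.764) and Sfrp1 (31.5 ± 0.200) led, followed by Wisp1 (7.76 ± 0.680), Dkk3 (6.85 ± 0.238), Wnt5a (5.74 ± 0.533) and Wnt4 (1.26 ± 0.324), while Axin2, Dkk2 and Wnt5b were at or below 0.202 CPM per kb (SD, n = 3). With CrOE EVs Wisp1 led at 24.4 ± 0.483 CPM per kb, and Wnt5a was next at 3.21 ± 0.176. Sfrp2 stood at 0.529 ± 0.0375, Sfrp1 at 0.267 ± 0.0270 and Dkk3 at 0.117 ± 0.0117 in that group. Wnt5a was thus below both Sfrp genes per length in untreated cells and above them with CrOE EVs. Exons of Wnt5a, Sfrp2 and Axin2 overlap those of a gene on the opposite strand, so part of their reads could belong to it if strand was not used.

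**Figure D3:**
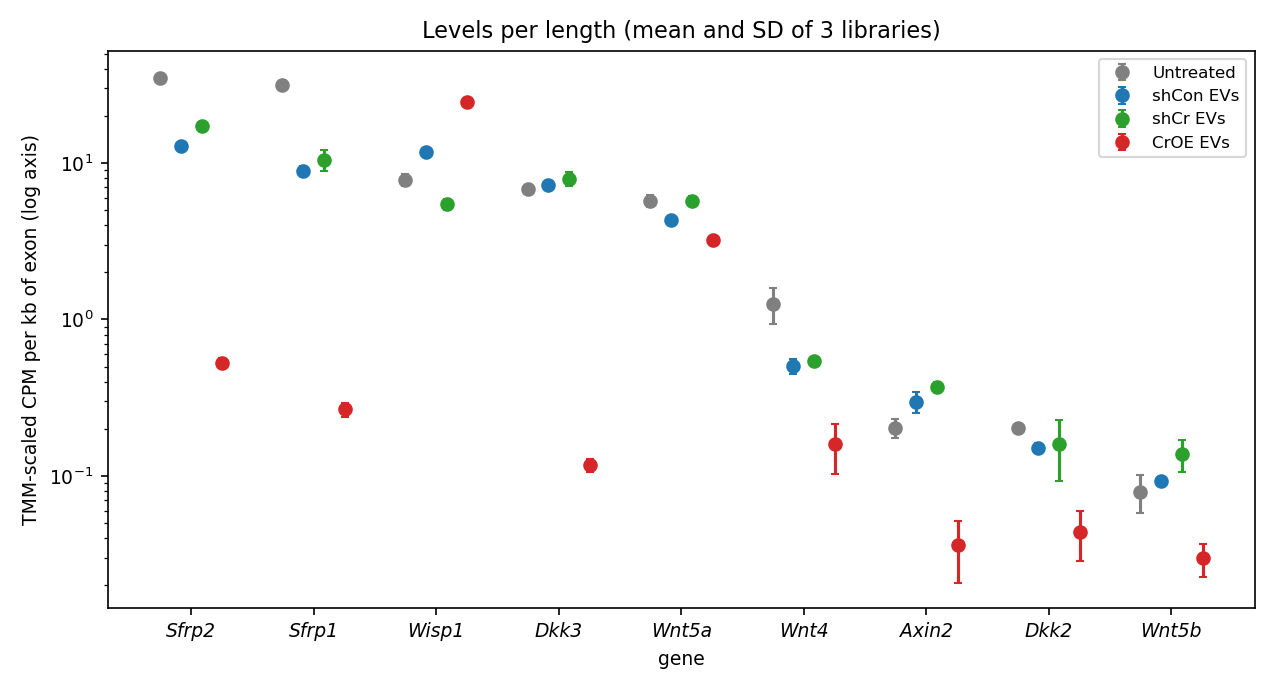
TMM-scaled CPM per kb of exon (y axis, log scale) of 9 genes (x axis, ordered by untreated level), as mean and SD of 3 libraries per group; Wif1, at 0, is left out. Of the CrOE EV points only those of Wisp1 and Wnt5a lie above 1 CPM per kb, and that of Wisp1 is the highest.

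The genes most like each member in log2 CPM over the 12 libraries, by Pearson's r, are a description of libraries that fall into 4 groups. For Sfrp1 they were Mgp (0.999), Ly6a (0.998) and Fst (0.998), and for Sfrp2 Limd2 (0.999), Thra (0.999) and Fst (0.998). Dkk3 was most like Rin2 (0.999), Gas7 (0.999) and Cp (0.999), and Dkk2 like Dixdc1 (0.962), Furin (0.960) and Prkar1b (0.959). For the ligands, Wnt5a was most like Peg10 (0.993), Grk5 (0.986) and Scamp1 (0.983), and Wnt4 like Lmod1 (0.985), Cish (0.982) and Fgf23 (0.982). Wisp1 was most like Skil (0.995), Plekha1 (0.981) and Grb10 (0.979), and Axin2 like Rcan2 (0.988) and Dusp27 (0.987). Among the members, Sfrp1 and Sfrp2 had an r of 0.996, and Wisp1 had a negative r with each of the other 7 tested members (-0.93 to -0.77).

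The wider pathway was read from 8 lists of 102 further genes, of which 70 were tested. With CrOE EVs 21 were called higher and 37 lower against untreated cells, with shCon EVs 17 and 18, and with shCr EVs 13 and 15. That is 82.9%, 50% and 40% called, beside 73.7%, 38.1% and 37.3% of all tested genes; the shares of all genes called higher and lower are those given with the members' counts. The median log2 fold changes were -0.46, 0.057 and -0.066. Between shCr and shCon EVs 5 were higher and 8 lower, 18.6% called beside 8.73% of all genes.

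Of the other secreted modulators 4 of 15 were tested, and with CrOE EVs 3 were called lower and 0 higher. That is 75% called in either direction, near the 73.7% of all tested genes. Of all tested genes 37.0% were called lower and 36.7% higher. Notum, an enzyme that removes the Wnt lipid, stood at 12.7 ± 0.602 CPM in untreated cells (SD, n = 3), 5.34 ± 0.354 with shCon EVs, 7.49 ± 0.810 with shCr EVs and 0.299 ± 0.0938 with CrOE EVs. Rspo2 and Rspo3, R-spondins that raise Wnt receptor levels, fell with CrOE EVs, Rspo2 from 42.9 ± 2.16 to 1.81 ± 0.230 CPM and Rspo3 from 7.35 ± 1.53 to 0.443 ± 0.0636. Rspo1, the 1 tested modulator without a call there and named after its values were seen, stood at 0.522 ± 0.146 CPM in untreated cells and 0.658 ± 0.0933 with CrOE EVs (adjusted p = 0.325, edgeR). Rspo2 also fell with shCon EVs against untreated cells (log2 fold change -0.46, adjusted p = 0.00112, edgeR). Set against shCon EVs, Rspo3 was lower with shCr EVs (-0.77, adjusted p = 0.00991, edgeR) and Notum higher (0.49, adjusted p = 0.0204). Of the other Wnt ligands 5 of 16 were tested. Wnt9a rose with shCon, shCr and CrOE EVs (log2 fold changes 1.32, 1.24 and 1.64), and Wnt6 fell with CrOE EVs (-4.79).

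Among 22 tested receptors and co-receptors, 15 were called lower and 5 higher with CrOE EVs, where 37.0% of all tested genes were lower and 36.7% higher. Fzd4 fell in the shCon, shCr and CrOE EV groups by 1.53, 1.86 and 2.25 on the log2 scale. Ror1, a receptor for Wnt5a, fell with CrOE EVs (-2.67) and was higher with shCr than shCon EVs (0.66, adjusted p = 0.00677, edgeR). Ptk7 and Reck, which act with Wnt receptors, fell with CrOE EVs (-2.53 and -2.80), while Fzd3 rose (2.29), as did Znrf3 (1.44), a ligase that removes Frizzled from the surface. Wls, the carrier of Wnts to the surface, rose with CrOE EVs (0.34), and Porcn, which attaches the lipid, fell (-1.15).

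**Figure D4:**
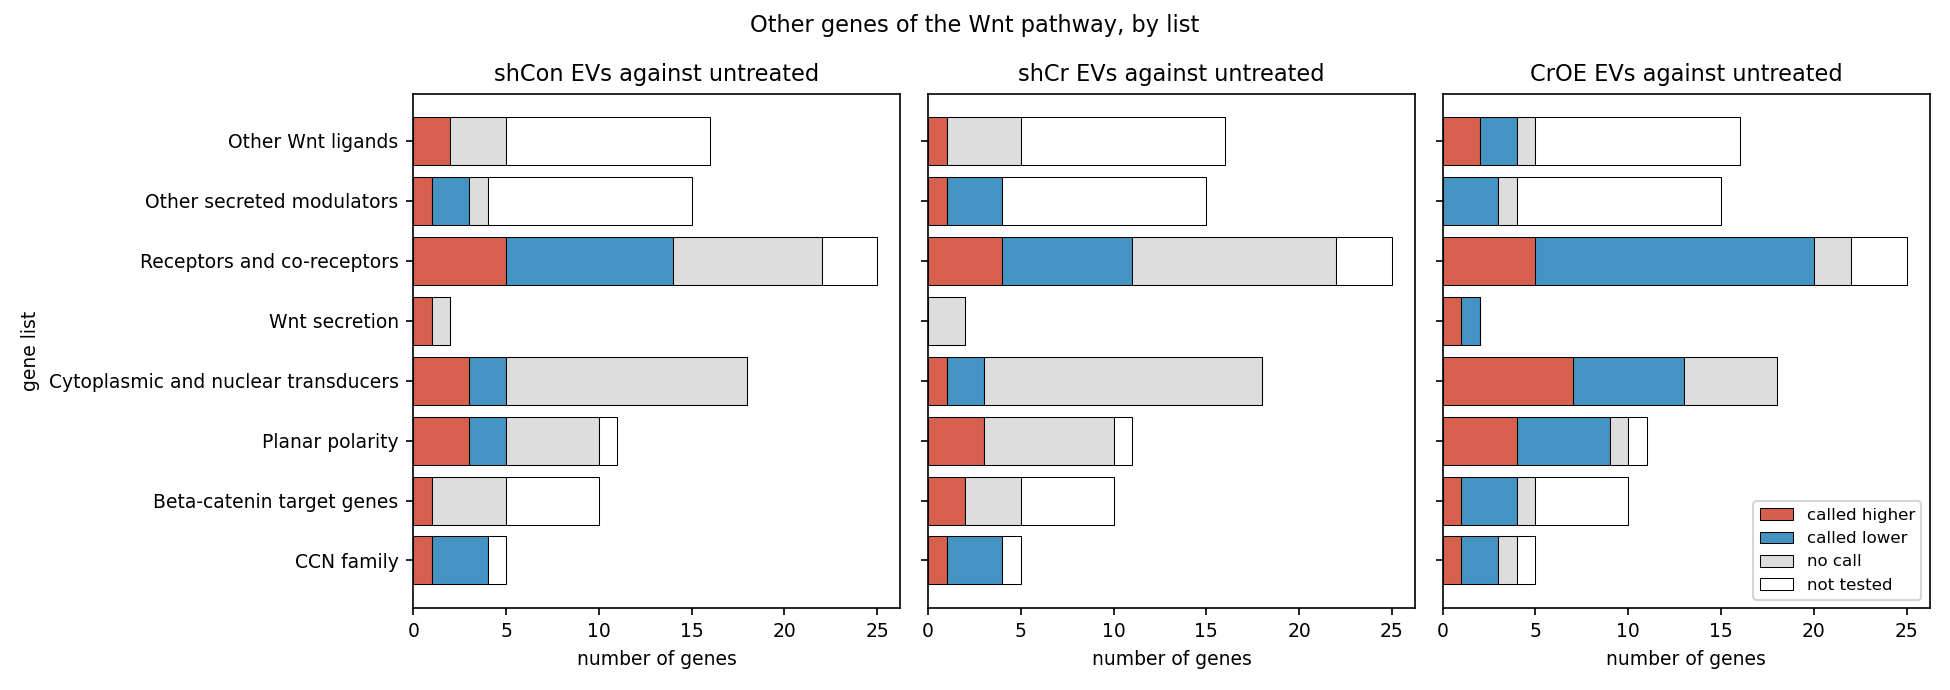
Number of genes (x axis) called higher, called lower, not called and not tested in 8 lists of other Wnt pathway genes (y axis), for each EV group against untreated cells. With CrOE EVs 15 of 22 tested receptors and co-receptors were called lower (37.0% of all tested genes were), and with shCr EVs 3 of 18 transducers were called (37.3% of all tested genes were).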

How the data were processed

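Bulk RNA of 12 libraries was measured after poly(A) isolation with a directional kit, per the labels' protocols. The authors deposited estimated counts by gene symbol, not scaled between libraries, and 30.1% of the values differ from a whole number by more than 0.001. featureCounts and mm39 are named in the submitters' processing notes, while its version and strand setting, the aligner and the annotation are not given in the sources used here.

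Values were rounded, filtered with filterByExpr (14279 of 32544 genes kept), TMM-scaled and compared with edgeR 4.0.16 (R 4.3.3) by glmQLFit and glmQLFTest. All 12 libraries entered a single fit with group means, and p-values were Benjamini-Hochberg adjusted over all tested genes in each of 6 comparisons. SEs were derived from the F statistic. The script was tested on simulated data.

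Every member is named. From each pathway list the text draws on called genes without overlap between groups and with mean log2 CPM 1 or above: the 2 largest rises and 2 largest falls for CrOE and for shCon EVs against untreated cells, and the largest each way for shCr against shCon EVs. Likeness names the 3 tested genes with the highest correlation, at mean log2 CPM 1 or above; 1 of them, for Axin2, is not reported here. Members and lists were chosen with earlier results of these data known. Alternatives were DESeq2 1.42.0, its size factors within edgeR, no filter, a minimum of 10 counts per library, a replicate block, fits of only the 2 groups compared, leaving out each library, and a fold change of at least 2.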

Additional observations from a re-analysis of the deposited data

How the results depend on the processing

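A fold change of at least 2 left 3 members with shCon EVs and 3 with shCr EVs against untreated cells, and 1 for shCr against shCon EVs. Of the 70 other pathway genes tested it left 6, 7 and 2 in these comparisons. It left 36, 30 and 30 for CrOE EVs against untreated cells, shCon EVs and shCr EVs. Of all tested genes it left 6.04%, 6.28% and 0.756% in the former comparisons. For CrOE EVs it left 29.7%, 27.2% and 29.6% of them, in the order given. No other setting moved a count of calls by over 1.5 times. With at least 10 counts in every library, Dkk2 and Axin2 were not tested, and 6 members were called for CrOE EVs against untreated cells. Of the single-member values under other settings, 546 kept direction and side of the threshold, 7 lost the call (all Dkk3 with shCr EVs against untreated cells) and 10 changed sign, none of them a call. Wnt5a with shCr EVs accounts for 9: -0.0054 with DESeq2's size factors, -0.0061 without the filter, -0.0045 with at least 10 counts per library, -0.0074 with DESeq2, -0.0036 in a fit of only those 2 groups, and -0.069 to 0.059 over the fits that left out a library. Dkk2 for shCr against shCon EVs ranged from -0.34 (without shCr EV replicate 2) to 0.29 when a library was left out. The replicate number as a block gave 5, 6 and 8 members called for shCon, shCr and CrOE EVs against untreated cells, the same counts as without it, and -8.2e-06 for Wnt5a with shCr EVs. Same-numbered libraries did not deviate together (r -0.20 to 0.32, above 0.1 in 5 of 18 pairs), so the numbers were not taken as pairs. Without the filter Wnt5b was also called in the 3 comparisons of CrOE EVs, against untreated cells, shCon EVs and shCr EVs. Depth limits Wnt5b, Dkk2 and Axin2, whose CrOE EV libraries held at most 9 counts.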

Other observations

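Genes of planar cell polarity, a branch of Wnt signalling that orients cells, moved in both directions with CrOE and with shCon EVs. Of 10 tested genes, 4 were called higher and 5 lower with CrOE EVs against untreated cells, 3 and 2 with shCon EVs, and 3 and 0 with shCr EVs (edgeR's quasi-likelihood test). Of all tested genes 73.7%, 38.1% and 37.3% were called in these comparisons. Prickle1, a cytoplasmic polarity protein, stood at 16.2 ± 1.01 CPM in untreated cells (SD, n = 3) and rose to 26.3 ± 0.699 with shCon EVs and 25.0 ± 1.94 with shCr EVs, but fell to 6.14 ± 0.575 with CrOE EVs. Daam2, a formin that acts with Dishevelled, fell with CrOE EVs from 66.0 ± 8.15 to 7.50 ± 0.995 CPM, while Vangl2, a membrane polarity protein, rose from 13.1 ± 0.886 to 19.8 ± 0.622.

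Inside the cell, 18 transducers were tested, with 7 called higher and 6 lower with CrOE EVs, 3 and 2 with shCon EVs, and 1 and 2 with shCr EVs. That is 72.2%, 27.8% and 16.7% called, near the share of all genes with CrOE EVs and below it with the others. Axin1, the relative of Axin2 in the destruction complex, rose with CrOE EVs from 73.1 ± 2.29 to 145 ± 3.13 CPM, in the libraries where Axin2 was lowest. Ctnnb1, which encodes beta-catenin, stood at 1088 ± 39.2 CPM in untreated cells, 1272 ± 12.9 with shCon EVs, 1062 ± 15.6 with shCr EVs and 763 ± 28.6 with CrOE EVs. It rose with shCon EVs by 0.22 on the log2 scale (adjusted p = 0.00215, edgeR), fell with CrOE EVs (-0.51, adjusted p = 4.2e-07), and was no call with shCr EVs (-0.035, 95% interval -0.14 to 0.065, adjusted p = 0.589). It was lower with shCr than shCon EVs (-0.26, adjusted p = 0.00408, edgeR). Tcf7l1 and Tcf7l2, DNA-binding partners of beta-catenin, fell with CrOE EVs by 1.38 and 1.37 on the log2 scale. Exons of Ctnnb1 and Tcf7l1 overlap those of a gene on the opposite strand.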
